A study of Bos taurus with 8 samples.

Results

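The epidermal growth factor (EGF) receptor family is the group of receptors, ligands and a feedback inhibitor examined here in rumen papillae, the leaf-like folds through which the rumen wall absorbs fermentation acids. The group comprised 9 genes, chosen by name: the receptors EGFR, ERBB2 and ERBB3, the ligands AREG, EREG, HBEGF, TGFA and BTC, and the inhibitor ERRFI1. A gene was included when a probe of the array carried a RefSeq accession that the bovine gene table assigns to that symbol. This held for 4 of the 9 genes, ERBB3, AREG, BTC and ERRFI1, out of 7788 gene symbols that were linked to the array in this way. EGFR, ERBB2, EREG, HBEGF and TGFA had no probe matched by accession and were not analysed here. They include EGFR, the receptor of the ligands AREG and BTC, and ERBB2, the partner of ERBB3. Of the 21475 probes, 8297 could be named, and probes without a name may measure these genes.

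The papillae came from the ventral sac of the rumen of 4 cannulated Holstein cows in milk, housed in tie stalls. Each cow was fed a low-concentrate diet (LC; 40% concentrate in the dry matter) in one period and a high-concentrate diet (HC; 70%) in the other, and was sampled on day 21, 4 h after the morning feed. Cows 1 and 2 received LC in period 1 and HC in period 2, while cows 3 and 4 received HC in period 1 and LC in period 2. One array in 1 colour was run per sample, which gave 4 LC and 4 HC arrays, and the 4 arrays of a period lay on the same slide. Slide and period can therefore not be told apart.

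Ligands of this family are made as membrane-anchored precursors and are released by cell-surface proteases of the ADAM type. They bind receptor tyrosine kinases that work in pairs and that switch on the RAS-ERK and PI3K-AKT pathways. In stratified epithelia, to which the rumen lining belongs, these signals are known to drive the proliferation of basal cells. Active receptors also induce their own brakes, among them ERRFI1, the Sprouty proteins and the SPRED proteins.

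Signals are given as quantile-normalized log2 intensities, so that 1 unit is a doubling. Per array, 76.9 to 81.2% of the 21475 probes were well above background by the scanner software's own test, and no spot was saturated. Each of the 4 measured members had 1 probe with 2 spots per array, and each was well above background on all 8 arrays. Before normalization, the intensity of the probe lay between 6880 and 11068 for ERBB3, 1237 and 2678 for ERRFI1, 123 and 350 for AREG, and 69.1 and 175 for BTC. The median difference between the 2 spots of an array, a measure of technical error within an array, was 0.08 log2 units for ERBB3 and ERRFI1, 0.17 for AREG and 0.14 for BTC. Signals of different probes cannot be compared with each other, so that only differences between arrays are described.

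The tissue label was compared with marker genes. Of 11 markers of stratified squamous epithelium, 8 had a probe matched by accession, and 7 of these, including KRT14, DSP, SFN and IVL, were well above background on all 8 arrays. The exception was TP63, a transcription factor that defines basal cells, whose probe did not rise well above background on any array. Probes for smooth muscle (5 of 5 markers), fibroblasts (5 of 5), endothelium (1 of 4) and leukocytes (4 of 5) were well above background on all 8 arrays, as were 16030 of all 21475 probes. In whole papillae, fewer cells of a type and less RNA per cell cannot be told apart. The summed signal of the 8 epithelial markers lay between 713644 and 929064 on LC and between 773397 and 918853 on HC, on the linear scale of the normalized signal. That of the 4 leukocyte markers was 1607 to 2085 on LC and 1485 to 2535 on HC, and that of the 5 fibroblast markers 13383 to 17565 and 12981 to 18815. The corresponding values for the 5 smooth muscle markers were 15080 to 19401 on LC and 14069 to 20378 on HC. The diets overlapped for each of these lists, and none of the matched markers passed the thresholds for diet, against 0.922% of all probes. Such sums mostly follow the brightest probes. By gene, the median difference (HC minus LC, log2) was 0.22 for leukocyte markers, of which 3 of 4 were higher on HC. It was 0.10 for fibroblast markers (4 of 5 higher), 0.04 for smooth muscle (5 of 5) and 0.01 for epithelium (5 of 8).

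The first comparison asked whether the diet changed the expression of these genes. None of the 4 measured members changed between HC and LC, where a change was a fold of at least 1.5 with an unadjusted p under 0.05 from limma. The cut-offs were those of the study, which took its p from a general linear model. Among all 21475 probes, 0.922% passed both thresholds, so that 0 of 4 members is a count near the background. No member had an unadjusted p under 0.05, against 3.65% of all probes, and the adjusted p was 1.00 for each of the 4. A general linear model without moderation also gave 0 of 4. The median difference of the 4 members was 0.11 (HC minus LC, log2), beside a median of 0.00 over all probes.

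ERBB3 (NM_001103105) encodes a receptor with little kinase activity of its own, which binds neuregulins and passes the signal on through its partner and PI3K. On LC, its signal was 12.64, 12.92, 13.03 and 13.02 in cows 1 to 4. On HC, it was 13.03, 13.26, 12.98 and 13.18 in the same cows. The lowest array was the LC array of cow 1 and the highest the HC array of cow 2, and the diets overlapped through the HC array of cow 3. The ERBB3 signal was 12.90 ± 0.18 (SD, n = 4) on LC and 13.11 ± 0.13 (SD, n = 4) on HC, a log2 difference of 0.21 (standard error 0.11) with a 95% confidence interval of -0.06 to 0.48. The unadjusted p from limma was 0.108 and the exact two-sided permutation p 0.114. The HC signal of ERBB3 exceeded the LC signal in 3 of 4 cows (0.39 in cow 1, 0.34 in cow 2 and 0.16 in cow 4), and cow 3 differed by -0.04. Within slides, the ERBB3 difference was 0.30 in period 1 and 0.12 in period 2. With cow as a random block, the unadjusted p from limma was 0.0383 at the same 1.16-fold difference, while with cow as a fixed block it was 0.0689. The upper end of the interval lies below the 1.5-fold threshold, which is 0.58 on this scale.

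AREG (NM_001099092) encodes amphiregulin, a ligand of EGFR that is shed from epithelial cells. Its signal on LC was 7.18, 8.29, 8.41 and 7.88 in cows 1 to 4, and on HC 7.48, 7.66, 8.41 and 7.11. Cow 3 was high and cow 1 low on both diets, whereas cows 2 and 4 were lower on HC than on LC. AREG averaged 7.94 ± 0.56 (SD, n = 4) on LC and 7.66 ± 0.55 (SD, n = 4) on HC. The AREG log2 difference was -0.27, with a standard error of 0.37 and a 95% confidence interval of -1.17 to 0.62. Its p was 0.483 in limma before adjustment and 0.486 in the exact permutation test. The changes within cows were 0.31, -0.64, 0.00 and -0.77 in cows 1 to 4, and the difference was 0.02 within the slide of period 1 and -0.57 within that of period 2. The sign of the AREG difference rested on single arrays: it was 0.00 without the LC array of cow 2, 0.05 without the HC array of cow 4 and -0.60 without the HC array of cow 3.

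BTC (NM_173896) encodes betacellulin, a ligand of EGFR and of ERBB4. The BTC signal was 6.93, 6.13, 7.34 and 7.16 on LC and 7.53, 6.58, 6.85 and 7.13 on HC in cows 1 to 4. Cow 2 had the lowest signal on both diets. BTC averaged 6.89 ± 0.53 (SD, n = 4) on LC and 7.02 ± 0.41 (SD, n = 4) on HC, a log2 difference of 0.13 (standard error 0.27, 95% confidence interval -0.52 to 0.78) with an unadjusted p of 0.641 from limma. Its exact permutation p was 0.743. In cows 1 and 2 the HC array exceeded the LC array for BTC by 0.60 and 0.45, whereas cows 3 and 4 differed by -0.49 and -0.03. Within slides, the BTC difference was 0.46 in period 1 and -0.20 in period 2, and it turned to -0.07 without the LC array of cow 2 and to -0.11 without the HC array of cow 1.

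ERRFI1 (NM_001077930) encodes a feedback inhibitor that binds the kinase domain of EGFR and its relatives. The ERRFI1 signal was 10.20, 10.46, 10.81 and 11.09 on LC and 10.35, 10.74, 11.22 and 10.61 on HC in cows 1 to 4. Cows 1 to 3 were higher on HC, by 0.16, 0.28 and 0.41, and cow 4 changed by -0.48. ERRFI1 averaged 10.64 ± 0.39 (SD, n = 4) on LC and 10.73 ± 0.36 (SD, n = 4) on HC. The ERRFI1 log2 difference was 0.09 (standard error 0.18, 95% confidence interval -0.35 to 0.53), where limma gave an unadjusted p of 0.634 and the exact permutation test 0.743. Within the slide of period 1 the ERRFI1 difference was 0.58 and within that of period 2 it was -0.40, and the sign turned without the HC array of cow 3 (-0.06) or of cow 2 (-0.01).

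**Figure D1:**
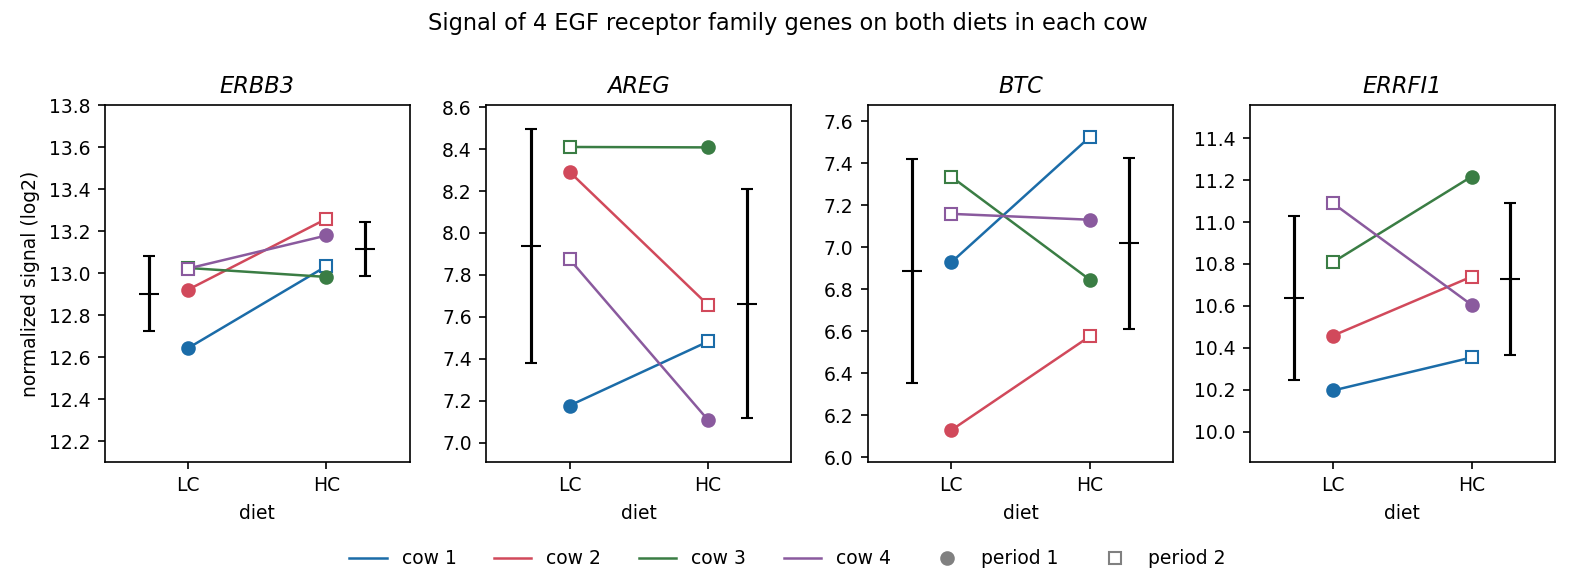
Normalized log2 signal (y axis) of ERBB3, AREG, BTC and ERRFI1 on the LC and HC diets (x axis), with a line for each of the 4 cows, filled circles for period 1, open squares for period 2, and black bars for the mean ± SD of the 4 arrays of a diet; each y axis covers the same range of log2 units. ERBB3 was higher on HC in 3 of 4 cows, ERRFI1 in 3, BTC in 2 and AREG in 1.

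The spread between the arrays of a diet differed among the members. The SD between the 4 cows of a diet, pooled over both diets, was 0.16 for ERBB3, 0.38 for ERRFI1, 0.47 for BTC and 0.55 for AREG (log2). Each diet had arrays on both slides, so this SD also holds differences between slides and periods. The median of this SD was 0.21 over those 16030 probes that were measured well above background on every array. The share of them with a smaller SD was 30.3% for ERBB3, 86.0% for ERRFI1, 92.8% for BTC and 95.6% for AREG. These probes were not matched to the members by brightness. The signal of AREG spanned 1.30 log2 units over the 8 arrays and that of BTC 1.40, against differences between the 2 spots of an array of at most 0.37 and 0.27. The spots of an array share the same labelled sample, so their differences leave out technical error between arrays. The median absolute change within a cow was 0.47 for AREG and BTC, 0.34 for ERRFI1 and 0.25 for ERBB3, beside a median of 0.18 over the same probes.

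**Figure D2:**
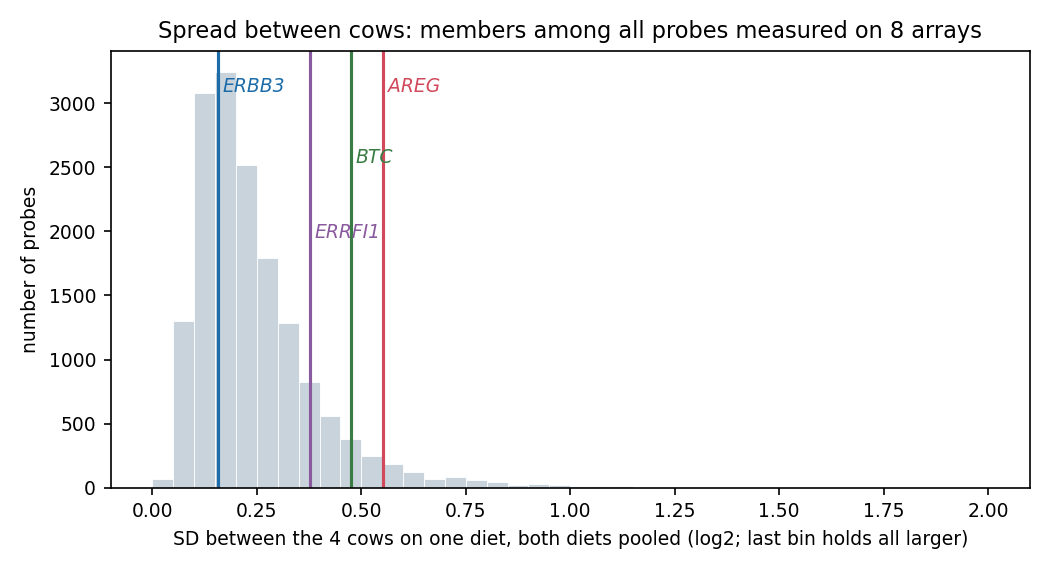
Histogram of the SD between the 4 cows on one diet, pooled over both diets (x axis, log2), for 16030 probes that passed the background test on every array (y axis, number of probes), with vertical lines at the 4 members. ERBB3 (0.16) lies left of the median of 0.21, and ERRFI1 (0.38), BTC (0.47) and AREG (0.55) lie in the right-hand tail.

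The next comparison was between the periods, which were also the slides. None of the 4 members passed both thresholds for period, against 3.86% of all probes. None had an unadjusted p under 0.05 from limma, against 12.3% of all probes, or an adjusted p under 0.05, against 0.0419%. A general linear model without moderation also gave 0 of 4. All 4 differences were above 0, with log2 values (period 2 minus period 1) of 0.39 for BTC, 0.15 for ERBB3, 0.13 for ERRFI1 and 0.11 for AREG, beside a median of 0.02 over all probes. BTC averaged 6.76 ± 0.44 (SD, n = 4) in period 1 and 7.15 ± 0.41 (SD, n = 4) in period 2. The period difference of BTC had a standard error of 0.27, a limma p of 0.194 before adjustment and a permutation p of 0.257 (exact). In 3 of 4 cows BTC was higher in period 2 by at least 0.45, and in cow 4 by 0.03. The mean BTC signal was lowest in LC of period 1 (6.53) and highest in LC of period 2 (7.25), with HC of period 1 at 6.99 and HC of period 2 at 7.05. With cow as a fixed block the unadjusted p for BTC was 0.0239 at the same 1.31-fold difference, which is short of the fold threshold. The period difference of BTC depended on single arrays. Leaving out the HC array of cow 2 gave 0.63, with an unadjusted p of 0.0406 in limma, which passed both thresholds, and the difference was 0.59 without the LC array of cow 1. It was 0.15 without the HC array of cow 1 and 0.19 without the LC array of cow 2, with unadjusted p values of 0.537 and 0.499.

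Because each cow received both diets, the interaction of diet and period is the contrast of cows 1 and 2 against cows 3 and 4. Of the members, 0 of 4 passed both thresholds for this contrast, against 2.93% of all probes, and none had an adjusted p under 0.05, against 0.0373%. All 4 were lower in cows 1 and 2, with a log2 difference of -0.49 for ERRFI1, -0.33 for BTC, -0.30 for AREG and -0.09 for ERBB3. An unadjusted p under 0.05 was found for 1 of 4, against 10.2% of all probes. This was ERRFI1, whose difference was 1.41-fold (standard error 0.18 on the log2 scale). The unadjusted p of ERRFI1 was 0.0331 in limma, and the adjusted p 0.463. The mean of the LC and HC arrays of a cow was 10.28 and 10.60 for ERRFI1 in cows 1 and 2, and 11.01 and 10.85 in cows 3 and 4. When limma was run on cow means, which takes the cow as the unit, the unadjusted p for ERRFI1 was 0.0375 and the adjusted p 0.817. Without the HC array of cow 2 or of cow 4, ERRFI1 passed both thresholds. Its unadjusted p was not under 0.05 without the LC array of cow 1 or of cow 4, or without the HC array of cow 1 or of cow 3. The same held for the general linear model without moderation. In the same contrast, 5 of 5 smooth muscle markers and 4 of 4 leukocyte markers were higher in cows 1 and 2, with medians of 0.29 and 0.24, while 0 of 5 fibroblast markers were. None of these markers passed both thresholds, and their part in the ERRFI1 difference was not tested.

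The other genes of the pathway were taken from 5 lists with 60 genes, of which 23 had a probe matched by accession, and all 23 were well above background on all 8 arrays. None of the 23 changed with diet, against 0.922% of all probes, and none had an unadjusted p under 0.05 from limma, against 3.65%. The count of changed genes is thus near the background. The general linear model without moderation also called 0. Their median difference was 0.04 (HC minus LC, log2), beside 0.00 over all probes, and 15 of the 23 were higher on HC. For period, 0 of the 23 passed both thresholds, against 3.86% of all probes, and 0 had an unadjusted p under 0.05 from limma, against 12.3%.

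Of the other ligands and the receptor ERBB4 (7 genes), NRG1 was matched. NRG1 (NM_174128) encodes neuregulin 1, a ligand of ERBB3 and ERBB4. Its signal was 8.01, 8.43, 8.64 and 8.51 on LC and 7.89, 8.13, 8.48 and 8.12 on HC in cows 1 to 4. NRG1 was lower on HC in 4 of 4 cows, by log2 differences of -0.12 to -0.39, although the 2 sets of arrays overlapped. The NRG1 log2 difference was -0.24 (standard error 0.14, 95% confidence interval -0.59 to 0.11). Its unadjusted p in limma was 0.145, and 0.0579 with cow as a fixed block, and its exact permutation p was 0.257. Within slides the NRG1 difference was 0.08 in period 1 and -0.56 in period 2. It was -0.14 without the LC array of cow 2 and -0.15 without the HC array of cow 4. NRG1 and its receptor ERBB3 thus had differences of opposite sign, neither past the thresholds.

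Among the genes for shedding of ligands and turnover of receptors, 5 of 15 were matched and 0 passed the thresholds. Their differences ranged from -0.05 to 0.10, with a median of 0.02. ADAM10, a protease that releases betacellulin, differed by 0.10 (standard error 0.11), and HGS, which sorts internalized receptors for degradation, by 0.06 (standard error 0.08).

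Among adaptors and RAS-ERK kinases, 7 of 14 were matched and 0 passed, with differences from 0.00 to 0.33 and a median of 0.06. The largest was that of GAB1 (NM_001101201), a docking protein that links the receptors to PI3K and to ERK. GAB1 had signals of 11.41, 11.71, 11.87 and 11.46 on LC and 11.82, 12.07, 12.13 and 11.75 on HC in cows 1 to 4. All 4 cows had more GAB1 signal on HC, by 0.41, 0.36, 0.26 and 0.29, and the diets overlapped through the LC array of cow 3. The GAB1 log2 difference was 0.33 (standard error 0.16, 95% confidence interval -0.05 to 0.71), at p = 0.0779 in limma before adjustment and p = 0.114 in the exact permutation test. With cow as a fixed block the unadjusted p for GAB1 was 0.0128, at the same 1.26-fold difference, short of the fold threshold. Within slides the GAB1 difference was 0.38 in period 1 and 0.28 in period 2. A second, dimmer probe of GAB1 differed by 0.29 (standard error 0.17) and was higher on HC in 3 of 4 cows. ARAF, one of the RAF kinases, differed by 0.09 (standard error 0.10).

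Of the PI3K-AKT and phospholipase C genes, 3 of 9 were matched and 0 passed. PIK3CA, a catalytic subunit of PI3K, differed by 0.14 (standard error 0.09), and PLCG1, a phospholipase that binds active receptors, by 0.00 (standard error 0.13).

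**Figure D3:**
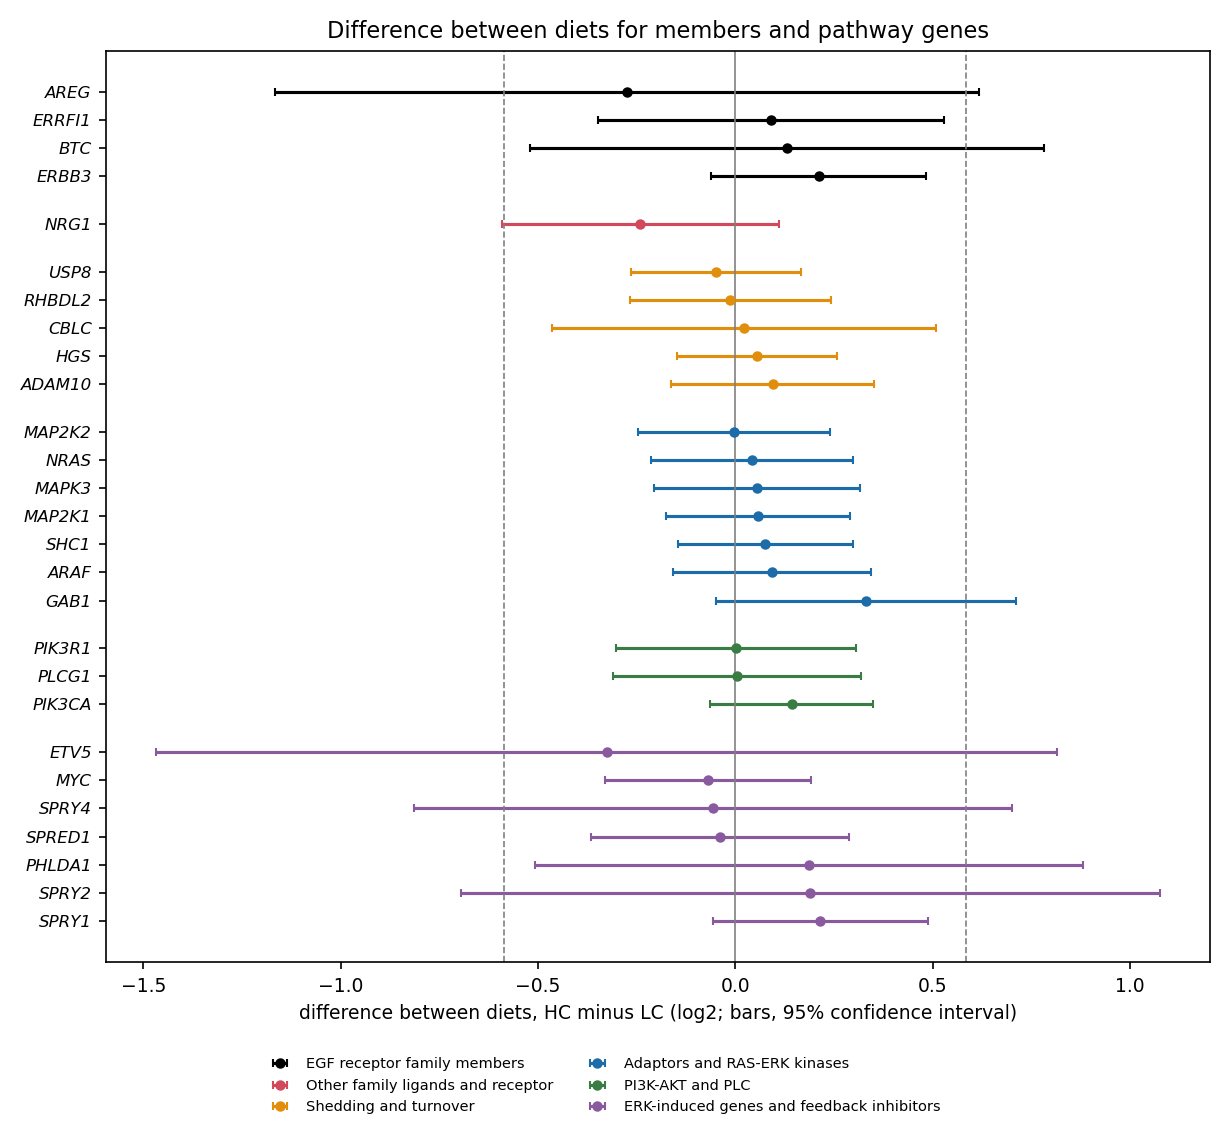
Difference between diets (x axis, HC minus LC, log2) for the 4 measured members and the 23 matched pathway genes (y axis), with bars for the 95% confidence interval from limma and dashed lines at the 1.5-fold threshold. Each interval includes 0, and those of AREG, BTC, SPRY2, SPRY4, PHLDA1 and ETV5 are the widest.

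Genes induced by ERK and feedback inhibitors had 7 of 15 matched, of which 0 passed for diet. Their differences ranged from -0.33 to 0.22, with a median of -0.04. SPRY1, a Sprouty inhibitor of ERK signalling, was higher on HC in 3 of 4 cows, with a log2 difference of 0.22 (standard error 0.11). The unadjusted p of SPRY1 was 0.101 in limma. ETV5, a transcription factor of the ETS family that is known to follow ERK activity, had signals of 6.32, 6.91, 7.36 and 6.45 on LC and of 6.05, 6.67, 7.50 and 5.53 on HC in cows 1 to 4. The log2 difference of ETV5 was -0.33 with a standard error of 0.47, and p was 0.515 in limma before adjustment. This difference was 0.17 without the HC array of cow 4, and -0.82 with an unadjusted p of 0.0481, past both thresholds, without the HC array of cow 3.

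ETV5 and AREG shared their highest and lowest arrays: both were highest in cow 3, on LC and on HC, and lowest on the HC array of cow 4. A high signal in cow 3 was not particular to them, as NRG1 and GAB1 were also highest in cow 3 on both diets. SPRY1, of the same list as ETV5, was not. The comparison of ETV5 with AREG was not planned. The second probe of ETV5 was also highest, at 5.51, on the HC array of cow 3 and lowest, at 3.08, on that of cow 4, but was 4.50 on the LC array of cow 3, below the 4.65 of LC in cow 1. SPRY2, another Sprouty inhibitor, had its 3 highest signals on both arrays of cow 1 (8.05 on LC and 7.91 on HC) and on the HC array of cow 4 (7.85), where AREG had its 3 lowest. SPRY2 was between 6.75 and 7.20 on the other 5 arrays. SPRY4 was highest on both arrays of cow 1 (5.92 and 5.65) and between 4.14 and 5.09 on the others. SPRY2 and SPRY4 were singled out after their values were seen. For cows 1 and 2 against cows 3 and 4, 1 of the 23 pathway genes passed both thresholds, a count near the 2.93% of all probes. This was SPRY4, with a log2 difference of 0.87 (standard error 0.31). For this contrast limma gave SPRY4 an unadjusted p of 0.0302 on the arrays and 0.0708 on the mean of each cow, with adjusted p values of 0.453 and 0.817.

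**Figure D4:**
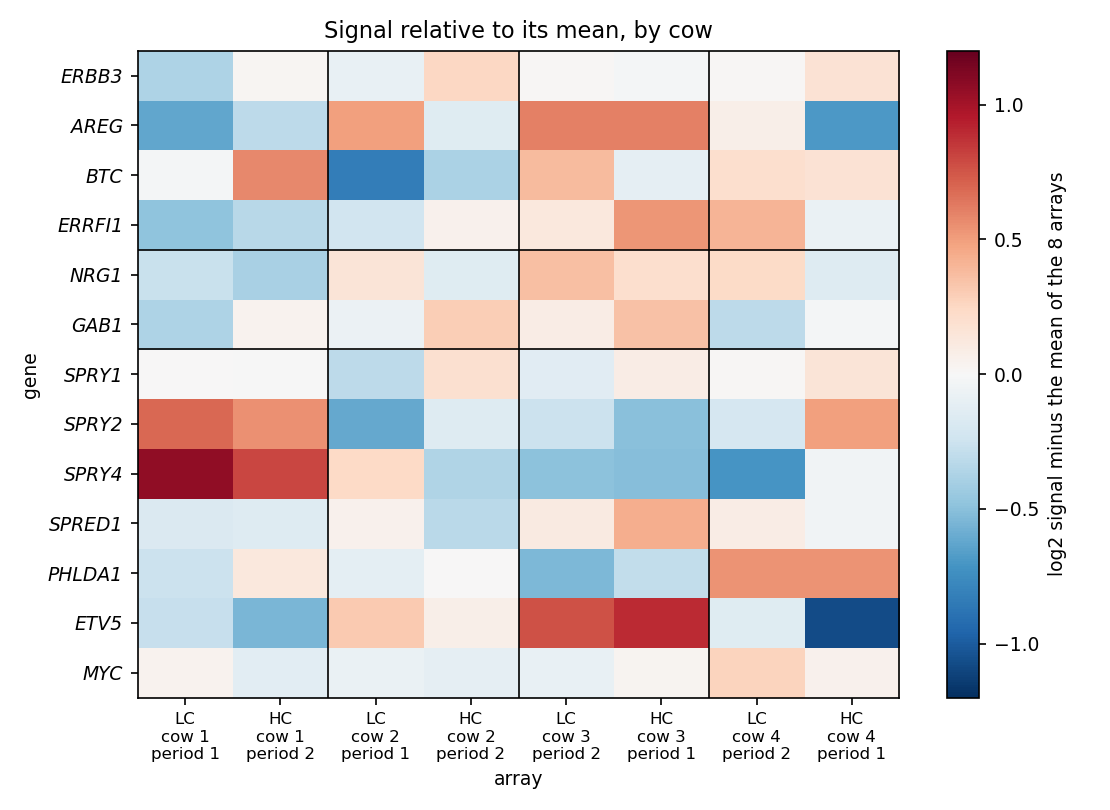
Log2 signal minus the mean of the 8 arrays (colour) for the 4 members, NRG1, GAB1 and the 7 matched ERK-induced genes and feedback inhibitors (rows), on the 8 arrays ordered by cow and diet (columns). AREG and ETV5 share their low array (HC of cow 4) and their high cow (cow 3), and SPRY2 is high where AREG is low. NRG1 and GAB1 are also highest in cow 3 on both diets.

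For each member, the 2 genes whose signal ran most like it over the 8 arrays were sought among the 6468 other genes well above background on all 8. With Pearson's r as the measure of likeness, they were CCM2 (0.95) and NTN4 (0.95) for AREG, F2 (0.98) and LOC534578 (0.97) for BTC, PTK2 (0.96) and SLC35B2 (0.96) for ERRFI1, and ZNF628 (0.94) and SCAND1 (0.93) for ERBB3. These are the highest of many values over 8 arrays from only 4 cows and serve as a description. Most of these genes moved over a narrower range than the member: CCM2 lay between 12.09 and 12.49, and PTK2, a focal adhesion kinase, between 9.18 and 9.41. LOC534578 lay between 8.59 and 9.83, a range closer to that of BTC.

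In the ARS-UCD2.0 gene table, EREG, AREG and BTC are direct neighbours among protein-coding genes, with AREG between the other two. The signals of the neighbours AREG and BTC did not run together: AREG was highest in cow 3 and low in cow 1, while BTC was highest on the HC array of cow 1 and lowest on the LC array of cow 2, which had an AREG signal of 8.29. Their differences between the diets had opposite signs, -0.27 and 0.13, neither larger than the spread between the arrays of a diet.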

How the data were processed

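For each of the 8 arrays (4 LC, 4 HC), none of them from pooled samples, the authors deposited the scanner output of Feature Extraction 10.7.3.1. It gives 1 background-subtracted intensity per spot, not normalized across arrays. A deposited table of quantile-normalized log2 values was used as an alternative. In it, the columns of cows 1 and 2 follow the array of the other cow; matched that way, the members' values lay within 0.011 of those computed here. Control and outlier spots (0 to 13 per array) were left out, log2 intensities were quantile-normalized and the spots of a probe averaged (21475 probes, no filter on dim ones). Diet, cow and period of each array were taken from the labels. Of 10176 probes with a RefSeq accession, 8297 were named through the ARS-UCD2.0 gene table. The array was annotated on another build (Btau_3.1 per the file headers), so no positions are given. The brightest probe stood for a gene.

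Diet, period and their interaction, the terms of the study's model, were fitted to all probes with limma 3.58.1 in R 4.3.3 (moderated variance, 4 residual and 2.26 prior degrees of freedom), with Benjamini-Hochberg adjustment over all probes. The fit was tested on simulated data with independent arrays and with planted changes larger than the members' differences between diets. That test covers neither the pairing by cow nor differences as small as those of the members. Exact two-sided permutation tests over the 4 arrays of each diet or period cannot go below a p of 0.0286. The number of arrays limits the precision. Tables and plots were made with pandas 2.3.3 and matplotlib 3.10.9 in Python 3.11.15. Same-numbered LC and HC arrays come from the same cow by the labels. Their deviations from the diet mean correlated with r of 0.285, 0.298, 0.467 and 0.113 in cows 1 to 4. Between LC and HC arrays of different cows, r lay between -0.237 and 0.185, a range that includes the value of cow 4. These correlations run across 16030 probes, which are not independent replicates.

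The members and lists were chosen with earlier results of these data known. Named are the members, pathway genes past both thresholds for diet, the 2 genes of each list with the largest difference between diets among those measured on all 8 arrays, and the 2 genes most like each member. SPRY2 and SPRY4 fall outside this rule. A gene of the lists is not reported here. Alternatives were 75th percentile scaling, normexp background correction (offset 50, on the spot and background medians, as the files used here hold no mean signal), the deposited table, a filter on dim probes, other terms, cow as a block, no moderation, a variance trend, the mean of all probes of a gene, and leaving out each array.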

Additional observations from a re-analysis of the deposited data

Results flagged for a closer look

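The difference between the diets differed between the periods for ERRFI1, by the interaction term of limma. The difference between the diets was 0.58 in period 1 and -0.40 in period 2, with an unadjusted p of 0.0331 for the interaction and an adjusted p of 0.463. SPRY4 had differences of -0.93 in period 1 and 0.82 in period 2, with an unadjusted p of 0.0302 for the interaction and an adjusted p of 0.453. On the mean of each cow, limma gave unadjusted p values of 0.0375 for ERRFI1 and 0.0708 for SPRY4. In this crossover the interaction of diet and period is the contrast of cows 1 and 2 with cows 3 and 4, so the interaction and a difference between these pairs of cows cannot be told apart. No array of the 4 members or the 9 named pathway genes stood apart from the other 3 arrays of its diet by Dixon's test, over 26 groups of 4 arrays.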

How the results depend on the processing

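The count of members past both thresholds for diet was 0 under all 19 alternatives. For period it was 0 to 1 as each array was left out, with BTC called without the HC array of cow 2, and 0 under the other settings. For the interaction it was also 0 to 1, with ERRFI1 called without the HC array of cow 2 or of cow 4. The count of pathway genes was 0 to 1 as arrays were left out, both for diet (ETV5, without the HC array of cow 3) and for period (SPRY4, without the HC array of cow 1), and 0 otherwise. With cow as a replicate block, the counts for diet were 0 for the members and 0 for the pathway genes, and the block changed no call. As each array was left out, the difference between diets ranged from -0.60 to 0.050 for AREG, from -0.11 to 0.37 for BTC, from -0.062 to 0.24 for ERRFI1, from -0.82 to 0.17 for ETV5 and from -0.13 to 0.13 for PLCG1. The difference between periods ranged from -0.22 to 0.43 for AREG, from 0.15 to 0.63 for BTC and from -0.024 to 0.28 for ERRFI1. PLCG1, at 0.00, was also negative with the deposited table (-0.00050). Of 319 recomputed differences of single genes, 302 kept their direction and their side of the thresholds, 15 changed sign and 2 newly passed both thresholds. The other 5 members were not analysed here. The intervals given come from the fit without a term for each cow. With 4 arrays per diet, differences smaller than these intervals could not be told from 0 in that fit.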
